A study of Homo sapiens with 282 samples.

Results

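OCI-Ly3, a human cell line established from a diffuse large B cell lymphoma, was compared after 6 h in 20.2 uM and 12.4 uM of H-7, Dihydrochloride, a kinase inhibitor. The comparison takes the arrays labelled with this compound, these concentrations and this time, 3 arrays each and 6 of 282 in all. The series profiled 14 compounds, DMSO and medium at 6, 12 and 24 h, with compounds added 12 h after cells were plated in 96-well plates. RNA came from single wells harvested in triplicate, and the labels do not say that the wells were separate cultures. P-values therefore measure the spread between arrays of a group, pooled over all groups in a fit, which may be technical. Groups used below are H-7 at 20.2 uM (n = 3), H-7 at 12.4 uM (n = 3) and the vehicle DMSO at 1% (n = 8), all at 6 h, and the 2 H-7 groups of 12 h (n = 3 each). All carry the same line and medium. The higher concentration is 1.63 times the lower.

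H-7 is an isoquinoline sulfonamide that competes with ATP in protein kinase C, protein kinase A and related kinases. At micromolar levels it is also known to block phosphorylation of the carboxy-terminal tail of RNA polymerase II, which the elongation kinase CDK9 and its cyclins T carry out. HEXIM1 and the capping enzyme MEPCE hold CDK9 inactive in a complex with 7SK RNA. Messages with short lives are the first to fall when elongation is blocked, and OCI-Ly3 belongs to the lymphomas with constant NF-kappaB signalling.

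All values are log2 signals of 1 probe set per gene, and differences are 20.2 uM minus 12.4 uM unless another pair is named. They come from limma over all 94 arrays of 6 h, with ± giving the standard error and p-values adjusted by Benjamini and Hochberg over 18239 genes. A gene is called higher or lower at an adjusted p under 0.05. Genes with low signal were kept in the test. The standard error pools the spread within all groups of 6 h. Pairs of 20.2 uM arrays differed with a standard deviation of 0.257 to 0.291, and pairs of 12.4 uM arrays with 0.19 to 0.21. With only the 6 H-7 arrays in the fit, 4600 genes were called (1396 higher, 3204 lower) in place of 5613. The members, gene lists and comparisons were chosen with earlier results of these data known.

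Of the 7 B cell markers measured, IRF4 averaged 12.63, 12.99 and 13.16 and CD74 13.24, 13.21 and 13.1 at 20.2 uM, 12.4 uM and in DMSO. PAX5 averaged 7.35, 7.37 and 7.23 in the same groups. MS4A1, POU2AF1, CD79A and CD79B lay below the median gene on all 6 H-7 arrays, so these defining B cell messages were near background by these probe sets. The 4 lists of T cell, monocyte, fibroblast and epithelial markers had mean levels from 4.08 to 6.67 at 20.2 uM, 4.03 to 6.72 at 12.4 uM and 4.01 to 6.74 in DMSO. Among their 32 members, 7 were higher and 2 lower at 20.2 uM. Over all genes 11.3% were higher and 19.4% lower, and among the 3649 genes from 4.23 to 5.26 in DMSO 9.95% and 2.11%. Of the markers, CD4 averaged 10.01, 9.79 and 9.48 in the 3 groups. The part of these markers in the results was not tested.

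The promoters of 3 genes on which results below turn are printed here. They are those of TRAF1, which fell most, of the elongation inhibitor HEXIM1, and of AEN, the p53 target that rose most. Each is 300 bases from RefSeq on GRCh38.p14, from 250 bases before to 50 after the first listed start, 5′ to 3′ on the gene's strand. TRAF1 is on the minus strand at chr9:120929122-120929421, HEXIM1 on the plus strand at chr17:45148225-45148524 and AEN on the plus strand at chr15:88621090-88621389. Capitals mark matches to 5 motifs searched on both strands, namely the NF-kappaB consensus by name, the E-box CACGTG, the TATA box TATAAA, the ETS core CCGGAAG and the CRE TGACGTCA.
TRAF1: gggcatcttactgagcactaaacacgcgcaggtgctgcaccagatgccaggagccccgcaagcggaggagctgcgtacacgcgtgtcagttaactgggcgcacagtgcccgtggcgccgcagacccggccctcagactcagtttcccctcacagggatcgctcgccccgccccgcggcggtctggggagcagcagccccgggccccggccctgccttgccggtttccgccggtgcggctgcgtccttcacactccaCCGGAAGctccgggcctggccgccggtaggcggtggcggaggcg
HEXIM1: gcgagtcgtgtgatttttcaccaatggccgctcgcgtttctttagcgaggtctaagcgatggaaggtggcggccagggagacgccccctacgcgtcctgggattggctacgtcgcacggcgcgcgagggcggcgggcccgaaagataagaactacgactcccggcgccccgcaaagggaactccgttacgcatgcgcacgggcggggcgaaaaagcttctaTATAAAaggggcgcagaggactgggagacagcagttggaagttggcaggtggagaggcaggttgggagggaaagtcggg
AEN: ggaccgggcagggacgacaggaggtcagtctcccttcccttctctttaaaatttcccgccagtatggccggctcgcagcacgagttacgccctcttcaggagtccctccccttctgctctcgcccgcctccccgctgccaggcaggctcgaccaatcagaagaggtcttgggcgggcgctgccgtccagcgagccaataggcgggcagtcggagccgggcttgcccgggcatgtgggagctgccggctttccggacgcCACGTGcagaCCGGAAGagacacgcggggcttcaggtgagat
TRAF1 held 1 ETS core at bases 257 to 263, HEXIM1 1 TATA box at bases 222 to 227, and AEN 1 E-box at bases 259 to 264 and 1 ETS core at bases 269 to 275. No 2 of these matches overlap. Among 14492 genes with a promoter in the table, 14.5% held the ETS core, 9.21% the TATA box, 8.81% the E-box, 6.41% the NF-kappaB consensus and 2.63% the CRE. The ETS core stood in 12.6% of the 1625 genes called higher and 22.2% of the 2980 called lower, against 21.7% of the 7736 above the median DMSO level. TATA boxes stood in 9.42% of genes called higher and 5.1% of those called lower, against 5.03% above the median level. For both motifs the share among genes called lower lay near that of well-expressed genes. The NF-kappaB consensus stood in 6.34% of genes called higher and 6.95% of those called lower.

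Raising H-7 by this step moved 5613 of 18239 genes, which is 30.8%. At 20.2 uM 2068 genes (11.3%) were higher and 3545 (19.4%) were lower than at 12.4 uM. The falls were larger: 184 exceeded 1 on the log2 scale, against 17 rises, and the median size was 0.45 for falls and 0.37 for rises. Against DMSO, 9126 genes (50%) were called at 20.2 uM and 6101 (33.5%) at 12.4 uM, 2 comparisons that share the DMSO arrays with each other and the H-7 arrays with the first. For scale, rapamycin at 22 against 13.8 uM, a ratio of 1.59, had 1124 genes called (6.16%) on other arrays of the same 6 h, and the difference between the compounds was not tested.

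The split between directions depends on how arrays are scaled. The median gene lay at 6.23 to 6.29 on the 20.2 uM arrays, 6.39 to 6.43 on the 12.4 uM arrays and 6.38 to 6.58 on the DMSO arrays. Setting each array's median gene equal moved the median difference of all genes to 0.17, from 0.02 as deposited, and gave 5721 genes higher and 2275 lower. A further quantile normalization gave 2623 higher and 2682 lower. The hybridisation control bioB, a spike added to every array, read 8.07 to 9.44 at 20.2 uM, 7.79 to 7.85 at 12.4 uM and 7.74 to 8.4 in DMSO. With bioB as a covariate over all 94 arrays, 4995 genes were called (1818 higher, 3177 lower). The same covariate in a fit of only H-7 and DMSO arrays, which changes the arrays as well, gave 3681 (1238 higher, 2443 lower). The part of array brightness in the other results was not tested beyond these settings.

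The share of genes called lower differed with their level in DMSO. Among the 3648 genes of lowest DMSO level (3.18 to 4.23), 10.6% were higher and 0.548% lower at 20.2 uM, while among the 3648 from 7.77 to 9.48 13.4% were higher and 38.8% lower. Genes at the floor of the signal range can hardly read lower, so the small share of falls there says nothing about the genes. Genes called lower had a median DMSO level of 8.77, those called higher 7.22, and all genes 6.52. Among the 401 genes above 12 in DMSO, 5.99% were higher and 13.2% lower. By gene length, taken as the RefSeq span, 13.1% of the shortest of 5 equal groups of all genes were lower and 19.3% to 24.1% of the other 4. Among genes above the median level alone, 33.7% to 37.7% were lower in each of 5 equal groups by length.

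**Figure D1:**
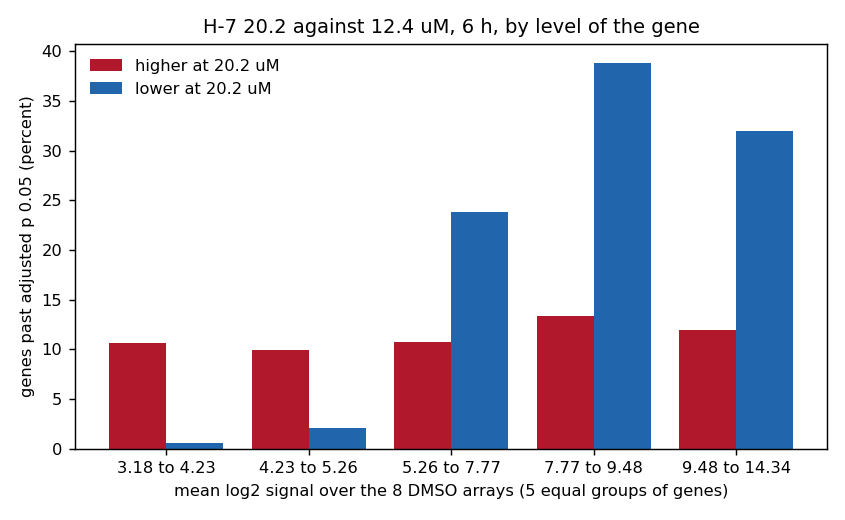
Percent of genes higher (red) or lower (blue) at 20.2 uM than at 12.4 uM H-7 (adjusted p under 0.05), for 5 equal groups of genes ordered by mean log2 signal over the 8 DMSO arrays. The lower share goes to 38.8% in the fourth group and 32.0% in the highest, while the higher share lies between 9.95% and 13.4%.

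The largest fall was that of TRAF1, an adaptor of tumour necrosis factor receptors and a known NF-kappaB target. It read 8.54, 8.51 and 8.5 at 20.2 uM and 10.45, 10.55 and 10.5 at 12.4 uM, against 11.06, 11.16 and 11.27 as lowest, median and highest DMSO array. The 3 groups did not overlap, and the difference was -1.98 ± 0.06, a level 3.95-fold higher at 12.4 uM (limma, adjusted p = 1.71e-43). RIOX1, a ribosomal oxygenase, read 6.19, 6.25 and 6.47 at 20.2 uM, 8.19, 8.19 and 8 at 12.4 uM and 8.73 to 8.91 in DMSO, a difference of -1.82 ± 0.08 (limma, adjusted p = 2.86e-33). SLC35F5 (-1.93), a solute carrier, JPH1 (-1.84), a junctophilin, and DIXDC1 (-1.80), a Wnt pathway protein, differed by similar amounts. RPTOR, the raptor subunit of mTORC1, differed by -1.59, but of its 5 other probe sets 4 were not called and 1 was higher. ZBED5 (-1.74) and TIGD2 (-1.70), both derived from transposases, and the zinc finger genes ZNF232 (-1.76) and ZNF226 (-1.58) were also among the 15 largest falls. POU3F2 (-1.78), GDPD1 (-1.76), CHST2 (-1.71), KRCC1 (-1.63) and NABP1 (-1.59), a single-stranded DNA binding protein, complete them. Averaging all probe sets of a gene kept the direction and the call of these falls but gave -0.93 for JPH1, -0.64 for DIXDC1, -0.71 for GDPD1, -1.06 for ZNF232, -0.90 for NABP1, -0.58 for ZNF226 and -0.33 for RPTOR. JPH1's other probe set read -0.02.

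For some of these genes the lower concentration lay close to DMSO. KRCC1 read 4.8, 4.7 and 4.85 at 20.2 uM and 6.35, 6.48 and 6.4 at 12.4 uM, against 6.17, 6.28 and 6.45 as lowest, median and highest DMSO array. The 12.4 uM arrays overlapped DMSO, with a difference of 0.11 from it (limma, adjusted p = 0.664), while the 20.2 uM arrays lay below every other array shown. SLC35F5 differed from DMSO by -2.18 at 20.2 uM and -0.26 at 12.4 uM, and ZNF226 by -1.75 and -0.17. In TIGD2 and HEXIM1 the lower concentration already lay well below DMSO: TIGD2 differed by -3.04 at 20.2 uM and -1.34 at 12.4 uM, HEXIM1 by -2.19 and -1.29.

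The largest rises were in weaker messages. Of the 15, 11 lay below the median DMSO gene, and their median DMSO level was 5.02, against 7.94 for the 15 falls. ALDH8A1, an aldehyde dehydrogenase, read 7.94, 7.82 and 7.73 at 20.2 uM and 6.44, 6.61 and 6.52 at 12.4 uM, against 4.86, 5.03 and 5.19 in DMSO. No group overlapped another, and the difference was 1.31 ± 0.15 (limma, adjusted p = 2.57e-11). C1orf162 (1.43), the cell cycle checkpoint paralog HUS1B (1.41), the testis chaperone HSPA2 (1.29) and the neuropeptide NMB (1.22) stood beside it. Better expressed were AEN (1.12), a nuclease that p53 induces, and ZNF367 (1.08). ZNF84 differed by 1.12 with the probe set used, while its other probe set fell by 0.97. SNORD72 (1.18), SCG5 (1.11), GCNA (1.11), GCM1 (1.09), NRG4 (1.03) and IFNA5 (1.02) were the others, with CCNT2 described below. The mean of all probe sets gave 0.66 for GCM1, 0.70 for ZNF367, 0.70 for CCNT2 and 0.59 for NRG4, and 0.07 for ZNF84, which was then not called.

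**Figure D2:**
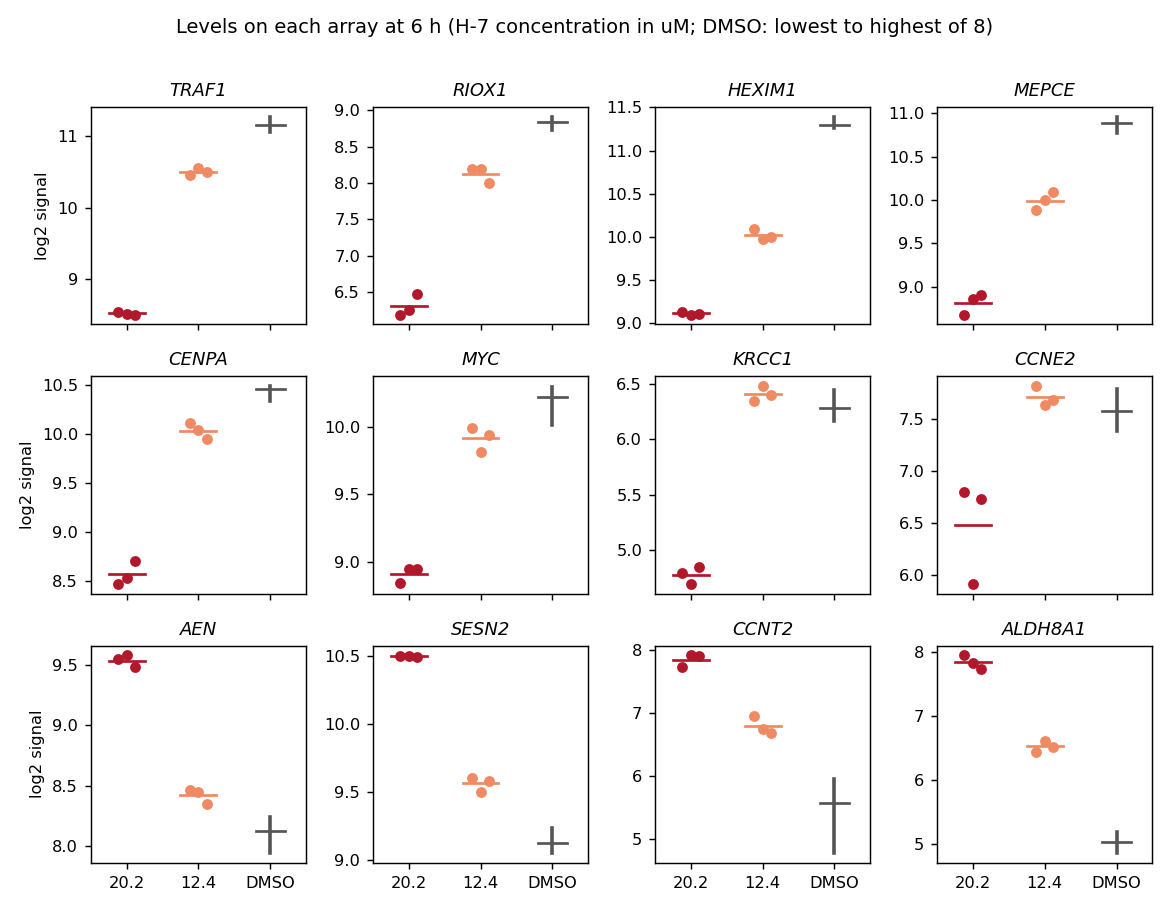
Log2 signal of 12 genes on each array of 6 h: points are the 3 arrays at 20.2 uM and the 3 at 12.4 uM H-7 with their mean as a line, and the grey bar runs from the lowest to the highest of 8 DMSO arrays with the median marked. In every panel the 20.2 uM arrays lie apart from the 12.4 uM arrays, and for KRCC1 and CCNE2 the 12.4 uM arrays overlap DMSO.

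Elongation factors of RNA polymerase II moved in both directions, more of them down. Of 32 measured, 13 were lower (40.6%) and 5 higher (15.6%) at 20.2 uM, with a median difference of -0.16. Over all genes the median was 0.02, and among the 6892 genes above 8 in DMSO 35.2% were lower and 12.6% higher with a median of -0.08, so the list's shares lie near those of genes of such levels. The lower count stayed the larger with quantile normalization (11 and 6) and with centred arrays (12 and 8). MEPCE, which caps 7SK RNA, read 8.68, 8.86 and 8.91 at 20.2 uM and 9.89, 10 and 10.09 at 12.4 uM, against 10.78, 10.89 and 10.96 in DMSO. The groups did not overlap, and the difference was -1.18 ± 0.08 (limma, adjusted p = 1.35e-21).

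HEXIM1, the protein inhibitor of CDK9, read 9.13, 9.1 and 9.11 at 20.2 uM and 10.09, 9.97 and 10 at 12.4 uM, against 11.26, 11.3 and 11.39 in DMSO. The 3 groups lay well apart, with a difference of -0.91 ± 0.05 (limma, adjusted p = 3.55e-26). HEXIM2 (-0.61), CDC73 (-0.81) and PAF1 (-0.50) of the PAF complex, the phosphatase CTDP1 (-0.77) and the kinases CDK12 (-0.64), CDK7 (-0.36) and CDK9 (-0.35) were also lower. CDK9 was no longer called after quantile normalization.

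CCNT2, one of the cyclins that activate CDK9, went the other way. It read 7.73, 7.92 and 7.91 at 20.2 uM and 6.96, 6.75 and 6.68 at 12.4 uM, against 4.78, 5.58 and 5.95 in DMSO. All arrays of the higher concentration exceeded all of the lower, by 1.06 ± 0.17 (limma, adjusted p = 3.72e-07). The subunits of RNA polymerase II itself moved little: 2 of 12 were higher (POLR2E 0.17, POLR2L 0.16) and 1 lower (POLR2H -0.16). These shares, 16.7% and 8.33%, stand beside 11.8% higher and 28.9% lower among genes above 10 in DMSO. Centring gave 4 subunits higher and 0 lower, and quantile normalization 2 and 0. POLR2H was not called with centring (-0.02), quantile normalization (-0.11) or the replicate block, nor without replicate 2 of 20.2 uM or replicate 3 of 12.4 uM (-0.15 each). POLR2E was not called without replicate 3 of 12.4 uM (0.12), and 1 of its 4 other probe sets was lower (-0.38) while 3 were higher. Neither POLR2E nor POLR2H was called with bioB as a covariate in H-7 and DMSO arrays alone.

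NF-kappaB genes had 13 of 29 lower and 6 higher, which is 44.8% lower beside the 35.2% of genes above 8 in DMSO, with a median difference of -0.04. With quantile normalization the list had 8 each way, and with centred arrays 7 lower and 11 higher, so its balance rests on the scaling. Beside TRAF1, the subunit NFKB2 fell by 0.86 (8.41, 8.49 and 8.58 at 20.2 uM; 9.36, 9.32 and 9.38 at 12.4 uM; 9.32 to 9.7 in DMSO). The feedback inhibitors NFKBIE (-0.85), NFKBIA (-0.40) and NFKBID (-0.34) were lower too. The subunit NFKB1, in contrast to NFKB2, was higher (0.28). Surface and secreted products split, with CD40 (-0.36) and ICAM1 (-0.32) lower and CD83 (0.33) and PLAU (0.28) higher. Among chemokines and cytokines 8 of 23 were higher (34.8%) and 4 lower (17.4%), beside 11.3% and 19.4% of all genes. CCL22 (0.80) and CCL5 (0.50) led upward and the receptors IL21R (-0.73) and CCR7 (-0.52) downward. The other CCL22 probe set read 0.12 and was not called.

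Immediate early genes, induced within minutes by growth signals, had 9 of 28 lower (32.1%) and 5 higher (17.9%) with a median of -0.01. Genes above 8 in DMSO had 35.2% lower and 12.6% higher, so the list's lower share lies near theirs. Centring (8 lower, 11 higher) or quantile normalization (7 lower, 10 higher) turned the list's balance. MYC read 8.85, 8.95 and 8.95 at 20.2 uM and 9.99, 9.81 and 9.94 at 12.4 uM, against 10.01, 10.22 and 10.29 in DMSO. It fell by 1.00 with no overlap between the groups (limma, adjusted p = 1.05e-16). EGR1 (-0.54), JUND (-0.67), NR4A1 (-0.46) and JUN (-0.45) were lower, while KLF6 (0.70), JUNB (0.34) and IER5 (0.33) were higher. Within the MYC network the antagonist MXD1 was higher (0.79) and MLX lower (-0.74). The other MXD1 probe set read -0.34 and was not called.

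Of 21 genes for kinases that H-7 inhibits and their relatives, 3 were higher, with PRKCB at 0.57 and PRKX at 0.44. Another 4 were lower, with PRKCZ at -0.45 and ROCK1 at -0.40. These shares, 14.3% and 19.0%, lie near the 11.3% and 19.4% of all genes. The list's median DMSO level was 8.0, and of genes above 8 in DMSO 12.6% were higher and 35.2% lower. Its lower share thus lay below that of genes of such levels. Centred arrays turned the kinase count to 10 higher and 1 lower. Neither of the 2 other PRKCB probe sets was called (0.1 and 0.24). Cyclic AMP and CREB targets had 7 of 21 lower (33.3%, near the 35.2% of genes above 8 in DMSO). These were led by RGS2 (-0.97), a regulator of G protein signalling, and the phosphodiesterase PDE4B (-0.65). In that list 3 were higher (14.3%), among them ID3 (0.67), and the balance turned with quantile normalization (4 lower, 5 higher). ID3 differed from DMSO by 0.03 at 20.2 uM and -0.64 at 12.4 uM. DUSP2, a phosphatase that switches off MAP kinases, fell by 0.87, reading 11.31, 11.41 and 11.36 at 20.2 uM, 12.19, 12.29 and 12.22 at 12.4 uM and 12.58 to 12.7 in DMSO.

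More p53 targets were higher than lower. Of 32 measured, 11 were higher (34.4%, beside 11.3% of all genes and 12.6% of genes above 8 in DMSO) and 4 lower, with a median of 0.13. Upward calls outnumbered downward ones under quantile normalization (16 and 3) and centring (20 and 4). SESN2, a sestrin that restrains mTORC1, read 10.5, 10.5 and 10.49 at 20.2 uM and 9.6, 9.5 and 9.58 at 12.4 uM, against 9.05, 9.12 and 9.23 in DMSO. The groups were separate, and the difference was 0.94 ± 0.07 (limma, adjusted p = 1.22e-19).

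The death receptor TNFRSF10A (0.93), the phosphatase PPM1D (0.84), SESN1 (0.78), TP53INP1 (0.68) and TIGAR (0.60) were higher with AEN. Lower members were PLK2 (-0.78), the polymerase POLH (-0.55), PLK3 (-0.42) and GADD45B (-0.36). In the apoptosis list CASP9 (-0.91) and DIABLO (-0.72), both of the mitochondrial death pathway, fell. As deposited 5 of 24 were lower (20.8%) and 1 (HRK, 0.66) higher (4.17%), beside 35.2% and 12.6% of genes above 8 in DMSO. Centred arrays gave 4 lower and 7 higher.

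**Figure D3:**
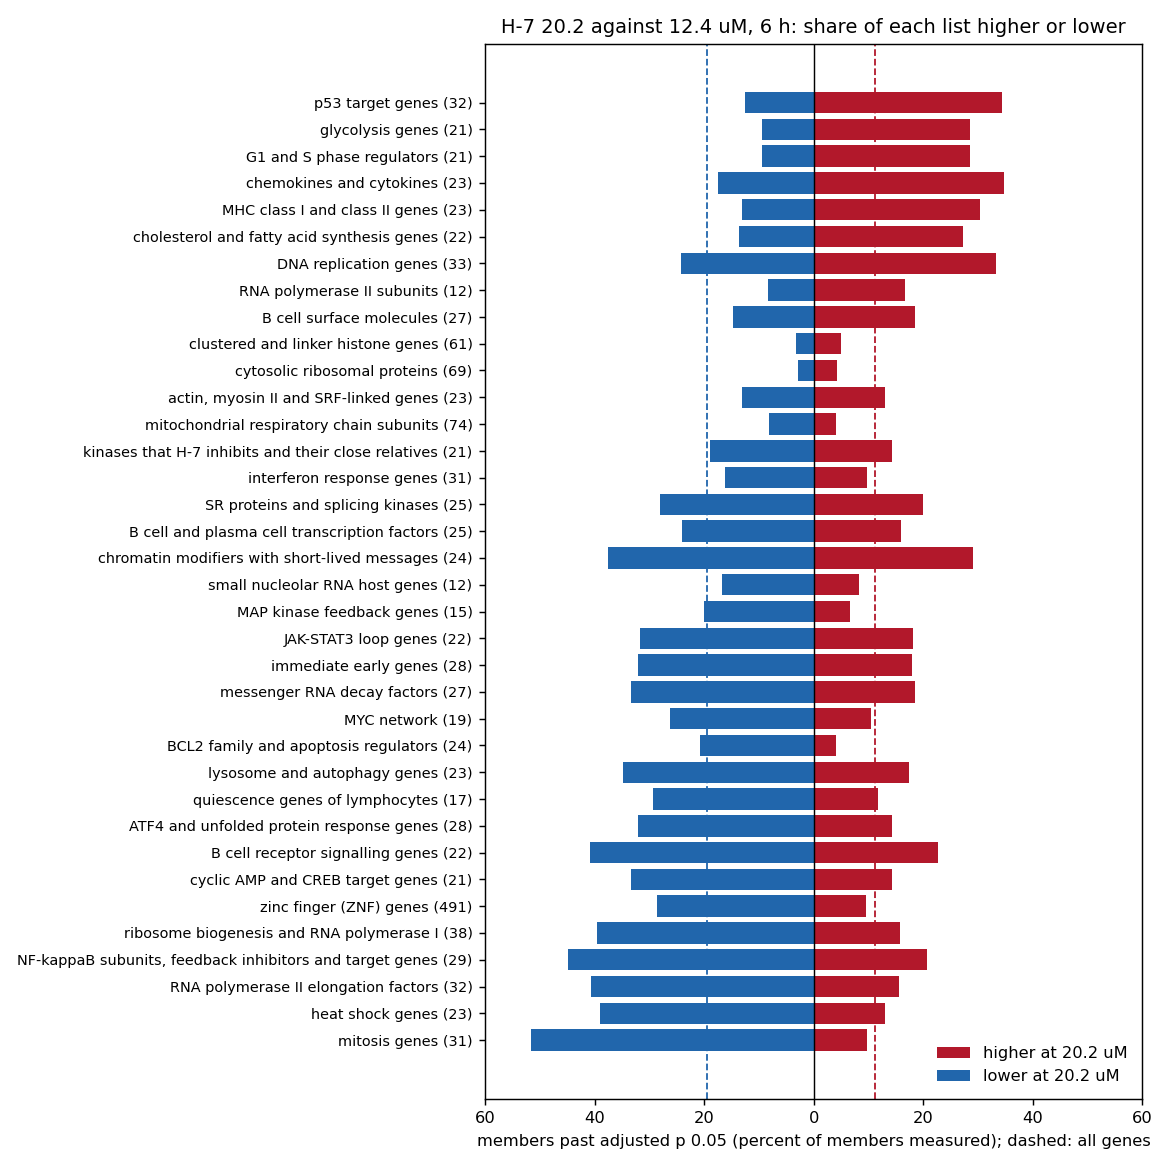
Percent of the measured members (number in brackets) of 36 gene lists that were higher (red, right) or lower (blue, left) at 20.2 uM than at 12.4 uM H-7 after 6 h. Dashed lines mark all genes, 11.3% higher and 19.4% lower, and mitosis genes reach 51.6% lower.

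Mitosis genes had the largest lower share of the lists shown, 16 of 31 (51.6%), with 3 higher (9.68%) and a median of -0.18. Their median DMSO level was 10.21, and among genes above 10 in DMSO 28.9% were lower and 11.8% higher. The list kept more lower than higher calls with quantile normalization (11 and 4) and centring (11 and 7). CENPA, the histone variant of centromeres, read 8.47, 8.53 and 8.7 at 20.2 uM and 10.11, 10.04 and 9.95 at 12.4 uM, against 10.34, 10.46 and 10.49 in DMSO. Its fall of 1.47 kept all 3 groups apart (limma, adjusted p = 1.74e-33). ESPL1, the separase (-0.89), AURKB (-0.67) and the motor KIF11 (-0.60) were lower. The other ESPL1 probe set read 0.1 and was not called. MKI67 (0.40), CDK1 (0.24) and PLK1 (0.23) were higher, so the proliferation marker and 2 mitotic kinases moved against most of the list.

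Replication and G1 genes leaned the other way. Of 33 replication genes 11 were higher (33.3%, median 0.04) and 8 lower (24.2%), beside 12.6% and 35.2% of genes above 8 in DMSO. TICRR (0.67), MCM5 (0.48) and MCM2 (0.42) were above and GINS1 (-0.78) and PRIM2 (-0.53) below. G1 and S phase regulators had 6 of 21 higher (28.6%), among them E2F2 (0.72) and CCNE1 (0.43). CCNE1 differed from DMSO by -0.02 at 20.2 uM and -0.45 at 12.4 uM. In that list 2 were lower (9.52%). One of these was CCNE2, a cyclin E, at 6.8, 5.92 and 6.73 at 20.2 uM, 7.81, 7.63 and 7.68 at 12.4 uM and 7.38 to 7.78 in DMSO. It differed by -1.22 ± 0.17 (limma, adjusted p = 1.31e-08), and the 12.4 uM arrays overlapped the DMSO range. The other CCNE2 probe set read -0.46 and that of E2F2 0.27, and neither was called.

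Cytosolic ribosomal proteins, at a median DMSO level of 13.51, had 3 of 69 higher and 2 lower with a median difference of 0, beside 5.99% higher and 13.2% lower among genes above 12. Centring gave 30 higher and 1 lower, the mean of a gene's probe sets 11 and 2, and the 6 H-7 arrays alone 1 and 1. Respiratory chain subunits had 3 of 74 higher (4.05%) and 6 lower (8.11%), beside 11.8% and 28.9% of genes above 10 in DMSO. Centring turned this to 36 higher and 2 lower. Ribosome biogenesis and RNA polymerase I genes, at a median level of 9.42, had 15 of 38 lower (39.5%, near the 35.2% of genes above 8), including the polymerase subunits POLR1A (-0.60) and POLR1B (-0.58) and UTP15 (-0.74), and 6 higher (median -0.04). With centred arrays that balance turned to 9 lower and 13 higher. Zinc finger genes named ZNF had 141 of 491 lower (28.7%, median -0.08) and 47 higher (9.57%), beside 19.4% and 11.3% of all genes. Centring turned that balance to 102 lower and 120 higher.

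Heat shock genes had 9 of 23 lower (39.1%, near the 35.2% of genes above 8 in DMSO) with a median of 0. CHORDC1 (-0.81), HSPA1A (-0.62) and DNAJB1 (-0.56) were among them. A further 3 were higher (13.0%), and centring gave 7 lower and 8 higher. In the unfolded protein list DDIT3 (-0.51) and HERPUD1 (-0.68) were lower and CEBPG higher (0.49). The list named chromatin modifiers with short-lived messages, whose message lives were not measured here, held some of the larger falls. These were ASXL2 (-1.39), ARID5B (-1.07), HDAC4 (-0.91) and the demethylase KDM6B (-0.82). Of ASXL2's 4 other probe sets 1 was lower and 3 were not called, and they ranged from -1.03 to 0.2. In all 9 of 24 were lower (37.5%) and 7 higher (29.2%), beside 35.2% and 12.6% of genes above 8 in DMSO. Quantile normalization turned this to 7 lower and 9 higher. Without the 20.2 uM array of replicate 2, which had the highest bioB reading, 7 were lower and 3 higher.

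B cell genes moved gene by gene. Among 25 transcription factors RUNX1 (-0.73), IKZF1 (-0.56), BCL6 (-0.39) and IRF4 (-0.36) were lower and EBF1 (0.78), FOXP1 (0.67) and TCF4 (0.53) higher. Of the 6 other RUNX1 probe sets 1 was lower, 1 higher and 4 not called, and they ranged from -0.73 to 0.61. B cell receptor signalling had 9 of 22 lower (40.9%, median -0.17) and 5 higher (22.7%), beside 35.2% and 12.6% of genes above 8 in DMSO. NFATC1 (-1.08) and VAV2 (-0.82) came first among the falls, and quantile normalization gave 5 lower and 6 higher. None of the 4 other NFATC1 probe sets was called (-0.25 to 0.27), and their mean with the first gave -0.20 (limma, adjusted p = 0.0507). MHC genes had 7 of 23 higher (30.4%, median 0.11) and 3 lower (13.0%), beside 5.99% and 13.2% of genes above 12 in DMSO. HLA-DOA stood at 0.56, and the regulators NLRC5 (-0.74) and CIITA (-0.45) were among the lower. Centring gave 17 higher and 1 lower. Leaving out the 20.2 uM array of replicate 1 left 3 higher and 3 lower in that list, leaving out replicate 3 of 20.2 uM left 4 and 1, and leaving out replicate 3 of 12.4 uM left 4 and 2.

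The same pair of concentrations was arrayed at 12 h on other arrays, none of low signal. With the low-signal arrays of other groups left out, 2931 genes (16.1%) were called there, 821 higher (4.5%) and 2110 lower (11.6%), against 19 (0.104%) with every 12 h array in the fit. Of the 2068 genes higher at 6 h, 206 (9.96%) were higher and 240 (11.6%) lower at 12 h. Of the 3545 lower at 6 h, 853 (24.1%) were lower and 87 (2.45%) higher. These shared genes make up 25.1% of the genes higher and 40.4% of those lower at 12 h. Readings of bioB at 12 h were 10.58 to 10.92 at 20.2 uM and 8.75 to 10.1 at 12.4 uM, and their part in these counts was not tested.

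In the 12 h fit without low-signal arrays, the 15 largest falls all had the same sign and 11 were called again. Of the 15 largest rises 14 had the same sign and 4 were called. ALDH8A1 averaged 7.12 at 20.2 uM and 5.28 at 12.4 uM at 12 h, a difference of 1.84 (limma, adjusted p = 7.47e-10). TRAF1 averaged 10.74 at 20.2 uM and 11.19 at 12.4 uM, at 12 h, a difference of -0.45 (limma, adjusted p = 8.45e-05).

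A direct contrast of the 12 h with the 6 h difference, over the 12 H-7 arrays of both times, called 2937 genes (16.1%). Among the genes lower at 6 h, 1077 had a less negative or a positive difference at 12 h and 63 a more negative one. Among those higher at 6 h, 568 had a less positive or a negative difference later and 22 a more positive one. Genes picked for a difference at 6 h will on average show a smaller one elsewhere, so these counts are given as a description. TRAF1 changed by 1.53 ± 0.10 (limma, adjusted p = 2.65e-10), MEPCE by 0.81 ± 0.12 and CENPA by 0.99 ± 0.13, while CCNT2 (-0.17), ALDH8A1 (0.53) and CCNE2 (-0.04) did not pass the threshold.

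Some members of the B cell lists changed sign between the times. EBF1, a founding B cell transcription factor, averaged 8 at 20.2 uM and 7.23 at 12.4 uM at 6 h, but 7.24 at 20.2 uM and 8.09 at 12.4 uM at 12 h. No array of one concentration overlapped the other at either time, and the 2 differences differed by -1.63 ± 0.19 (limma, adjusted p = 2.81e-06). CR2, the complement receptor, differed by 0.59 at 6 h and -0.56 at 12 h, and CD37, a B cell tetraspanin, by 0.37 and -0.50. Their contrasts of the times were -1.16 ± 0.13 and -0.87 ± 0.12 (limma, adjusted p = 2.02e-06 and 1.03e-05). The polymerase subunit POLR2E (0.17 and -0.26) and the sterol reductase TM7SF2 (0.55 and -0.60) also turned, and these 5 were the named genes called in opposite directions at the 2 times. At 6 h TM7SF2 differed from DMSO by -0.08 at 20.2 uM and -0.62 at 12.4 uM.

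**Figure D4:**
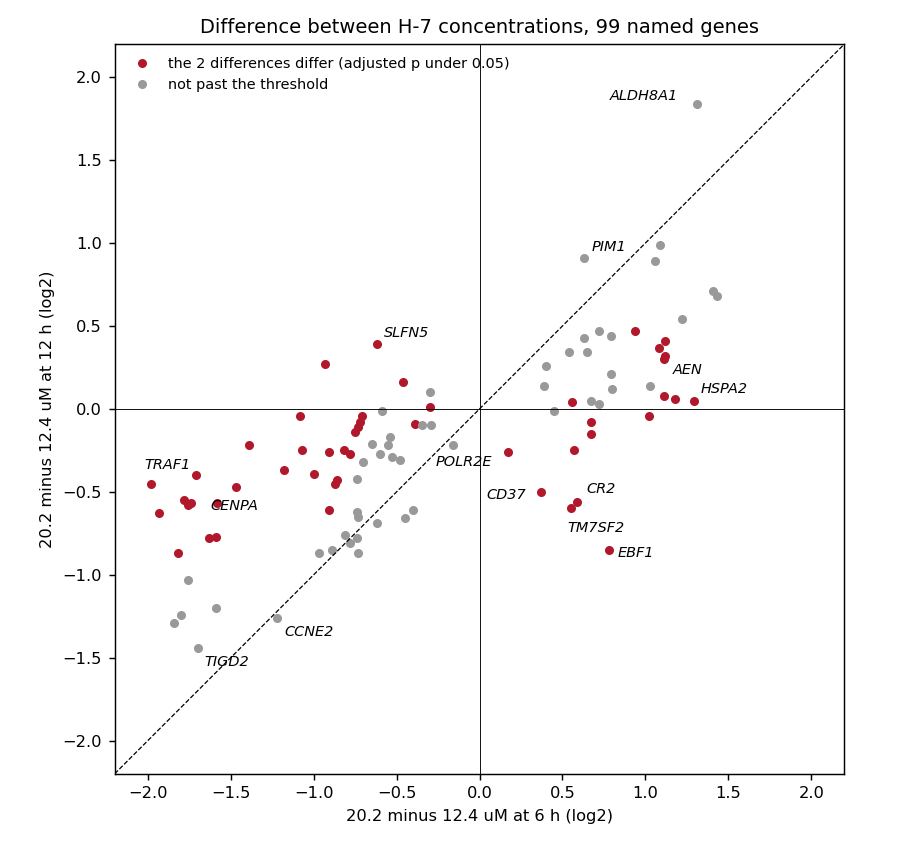
Log2 difference between 20.2 and 12.4 uM H-7 at 6 h (horizontal) and 12 h (vertical) for the 99 named genes, with red points where the 2 differences differ (adjusted p under 0.05) and the dashed line marking equal differences. EBF1, CR2, CD37, POLR2E and TM7SF2 lie at lower right, higher at 6 h and lower at 12 h.

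At 12 h 4.5% of all genes were higher and 11.6% lower, beside which the 12 h counts of each list stand. List by list, mitosis genes at 12 h had 5 lower and 6 higher, and in the contrast of 12 h with 6 h 10 of 31 were positive and 0 negative. Elongation factors had 3 lower and 5 higher, and in the direct contrast 13 of 32 were positive and 2 negative. Replication genes had 12 of 33 lower and 2 higher at 12 h, and in the contrast 11 were negative and 0 positive. Over all 18239 genes the contrast called 1458 positive and 1479 negative. It subtracts the same 6 h values that set the balance of each list above, so these counts are given as a description. The p53 targets kept more higher than lower calls at 12 h, 14 and 2 of 32. At 24 h all 3 arrays of 12.4 uM and 1 of 20.2 uM had low signal, so no gene or list is described at that time. Only counts of genes called at 24 h are given below, where dependence on processing is described.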

How the data were processed

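Per the submitters' processing notes, the authors made the deposited log2 values with RMA, whose version and the arrays normalised together are not given in the sources used here. RNA (300 ng per well, per the labels' protocols) was labelled with biotin and hybridised to arrays with 49386 probe sets. From there, 93 control probe sets and those without exactly 1 symbol were set aside, and the probe set of highest mean over 282 arrays stood for each of 18239 genes. limma 3.58.1 in R 4.3.3 fitted 1 mean per group over all arrays of a time, with trended variance and Benjamini-Hochberg adjustment. The 12 h differences, calls and list counts above come from the fit without low-signal arrays, except where every 12 h array is named. Low-signal arrays had an upper-quartile signal under 8 or a difference between the ACTB end probe sets over 2. The contrast of the times used the 12 H-7 arrays of 6 and 12 h, and was added after the data were seen, as were the rapamycin comparison and the fit with bioB on H-7 and DMSO arrays alone. Tables and figures used Python 3.11.15, numpy 2.4.6, pandas 2.3.3 and matplotlib 3.10.9. The fit was checked on simulated data.

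Named genes were the 15 largest rises and 15 largest falls among called genes whose arrays did not overlap, the 2 called members of largest difference in each of 41 lists (or of smallest p), and CDK9, HEXIM1 and PRKCB, 99 in all. Other list members are named beside their list's counts after their values were seen. The members and lists were chosen with earlier results of these data known. Alternatives were array weights, bioB as a covariate, centring, a further quantile normalization, leaving out the lowest 40% of genes, the mean of a gene's probe sets, no variance trend, only the arrays compared, a replicate block and leaving out each array. Precision is limited by 3 arrays a group. Same-numbered H-7 arrays of 6 h correlated at -0.034, 0.007 and -0.041 in their deviations from group means, so the numbers were not taken as pairs.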

Additional observations from a re-analysis of the deposited data

Results flagged for a closer look

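In 10 of 99 named genes, 1 of the 8 DMSO arrays of 6 h stood apart from the others by Dixon's criterion, which chance alone meets in about 1 in 20 groups. The lowest array stood apart for HUS1B (3.65), ZNF367 (7.24), RPL27A (5.41), POLR1A (8.78), ESPL1 (8.81), FOXP1 (8.2), EBF1 (7.08), ARID5B (8.95) and CDK9 (7.9), and the highest for PRKCB (6.75). The 20.2 and 12.4 uM arrays do not enter these values.

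For 49 of the 99 named genes the difference between 20.2 and 12.4 uM at 12 h itself differed from that at 6 h (limma on 12 H-7 arrays, adjusted p under 0.05). Values are the 12 h difference minus the 6 h difference on the log2 scale. All 31 genes with a negative difference at 6 h had a positive value and all 18 with a positive one had a negative value. Genes chosen for a large difference at 6 h tend to have a smaller one at another time by that choice itself.

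Among the largest falls the values were 1.53 for TRAF1, 1.31 for CHST2, 1.3 for SLC35F5, 1.23 for POU3F2, 1.18 for ZNF232, 1.17 for ZBED5, 1.01 for ZNF226, 0.95 for RIOX1, 0.84 for KRCC1 and 0.82 for RPTOR. Among transcription regulators they were 0.81 for MEPCE, 0.3 for HEXIM1, 0.61 for MYC, 0.61 for SRSF6, 0.31 for BTG1, 1.17 for ASXL2 and 0.83 for ARID5B. Signalling and immune genes gave 0.43 for NFKB2, 0.61 for IL21R, 0.51 for SOCS1, 0.42 for DUSP2, 1.04 for NFATC1, 0.57 for VAV2, 0.67 for IRF7 and 1.02 for SLFN5. The other positive values were 0.99 for CENPA, 0.65 for CASP9, 0.63 for DIABLO, 1.19 for GABARAPL1, 0.62 for NDUFV3 and 0.31 for SNHG7.

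Among the largest rises the values were -1.23 for HSPA2, -1.12 for SNORD72, -1.07 for IFNA5, -1.03 for SCG5, -0.8 for GCNA, -0.79 for AEN, -0.71 for ZNF84 and -0.71 for ZNF367. B cell and immune genes gave -1.63 for EBF1, -1.16 for CR2, -0.87 for CD37, -0.75 for FOXP1, -0.82 for PRKCB and -0.52 for HLA-DOA. The remaining values were -1.15 for TM7SF2, -0.82 for TICRR, -0.46 for SESN2 and -0.43 for POLR2E.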

How the results depend on the processing

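The 5613 genes called between 20.2 and 12.4 uM at 6 h became 4642 to 5244 when 1 array was left out, 4995 with bioB as a covariate and 3681 (1238 higher, 2443 lower) with that covariate in H-7 and DMSO arrays alone, where H2AC14 turned to -0.07 (limma, adjusted p = 0.861). With a replicate block, 4397 were called (1296 higher, 3101 lower); the numbers did not pair the arrays. Centring gave 7996 genes here and 13708 for 20.2 uM over DMSO. At 12 h the 19 genes became 3317 with array weights, 2931 without low-signal arrays, 3458 with only the arrays compared, 54 after quantile normalization and 3770 with the replicate block, and 4 to 7 when 1 array was left out. At 24 h, where low-signal arrays could not be left out, 3496 genes became 6070 with array weights, 2287 without the lowest 40% of genes, 5521 after quantile normalization, and 1368 to 7976 when 1 array was left out. Using only the compared arrays, or the replicate block, limma called 0 genes there (640 at an unadjusted p under 0.05). The cause was not tested, except that leaving arrays or genes out also changes what is tested. The contrast of 12 h with 6 h called 2051 to 3276 genes over the settings that kept all arrays, and 2244 to 3126 with 1 left out. The 30 leading genes kept direction and call in 471 of 472 alternatives, the exception being ZNF84 with the mean of its probe sets (0.07), and the 99 named genes in 1525 of 1573. These genes were picked for their differences on the same arrays, so such counts are high by that choice itself. Genes dropped with the lowest 40% are not in these totals, and 88 of the 99 named genes were kept there. Of 41 lists, the count of called members moved by over 1.5 times in 18 with bioB in H-7 and DMSO arrays alone, 14 with centring, 10 without replicate 2 of 20.2 uM and 9 without replicate 3 of 12.4 uM. Weak signals limit the many rises among genes below the median level.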
